A study of Homo sapiens with 3 samples.

Results

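The MHC class II genes and their regulators were examined on arrays of MDA-MB-231, an epithelial line from a human breast carcinoma that is regarded as estrogen receptor negative. The group held 10 genes: HLA-DRA, HLA-DRB1, HLA-DPA1, HLA-DPB1, HLA-DQA1, HLA-DMA, HLA-DMB, HLA-DOA, CD74 and CIITA. Every probe set annotated to exactly 1 symbol, being one of these, was taken, which gave 24 of the 41097 probe sets with a single symbol (54675 on the array). By its labels the study had 3 groups with 1 array each: tamoxifen at 1 µM for 3 h, estradiol at 1 µM for 3 h, and vehicle (0.1% ethanol) for 3 h. All 3 cultures had first spent 4 h in medium whose 10% serum was charcoal-stripped, a step that removes steroid hormones. The family was chosen by measured values: HLA-DRA and HLA-DPA1 had already been seen among the genes furthest above vehicle. Its differences, from vehicle and between the ligands, are therefore a description. With 1 array per group there is no replicate spread, no interval and no p-value for any difference.

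MHC class II molecules are pairs of an alpha and a beta chain that show peptides to CD4+ T helper cells. Their groove is first filled by the invariant chain, CD74, whose last fragment is exchanged for a peptide by HLA-DM, itself held back by HLA-DO. Transcription of the whole family depends on CIITA, a coactivator that does not bind DNA but is recruited by the factors RFX, CREB and NF-Y on a shared promoter module of X and Y boxes. Dendritic cells, macrophages and B cells make class II constitutively, whereas epithelial and carcinoma cells usually do so after interferon gamma has induced CIITA.

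The deposited log2 values have a median near 0 in each column (-0.02 for tamoxifen, -0.02 for estradiol and -0.04 for vehicle). They were read as differences from a baseline that is not one of these arrays and is not stated. Base 2 and the direction (a higher value meaning more RNA) are assumed. A value above 0 is therefore a level above that baseline, and levels cannot be compared between genes. The SD over all probe sets was 0.46 for tamoxifen, 0.47 for estradiol and 0.20 for vehicle. Since the vehicle array had the smaller spread, comparisons with it are repeated after multiplying its values by 2. Which setting lies closer to the true difference was not tested. A gene or probe set was counted as higher or lower where it differed by at least 1.5-fold, which is 0.58 on the log2 scale. All 8 markers of this line, among them VIM and CD44, lay in the brightest band of the array. Of 8 luminal breast markers, listed as low or absent in this line, 5 lay above the floor on brightness used below. These were ESR1, the estrogen receptor gene, GATA3, KRT8, KRT18 and EPCAM. The identity of the line was not tested.

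Values differed within the family: 7 of the 24 probe sets had values above 1.7 on both ligand arrays while others stayed near 0. Promoter stretches of the members are shown here beside these values. Windows from 250 bases before to 50 after an annotated start (RefSeq, build GRCh38.p14) were found for 8 of the 10 genes, 9 windows in all. HLA-DRA and CIITA are not shown. The windows were searched on both strands for an X core, CNAGNNAC, and a Y core, ATTGG or its reverse CCAAT, in letters chosen after these windows were read. The capitals mark these cores in the stretch of each gene's own strand:
HLA-DRB1, chr6:32589884-32589935, minus strand: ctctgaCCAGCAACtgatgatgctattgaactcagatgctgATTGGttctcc
HLA-DPA1, chr6:33073702-33073756, minus strand: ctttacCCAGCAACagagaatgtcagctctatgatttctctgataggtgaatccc
HLA-DPB1, chr6:33075847-33075901, plus strand: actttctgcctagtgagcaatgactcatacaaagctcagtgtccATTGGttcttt
HLA-DQA1, chr6:32637296-32637348, plus strand: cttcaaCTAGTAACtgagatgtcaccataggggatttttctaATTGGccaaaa
HLA-DMA, chr6:32953166-32953218, minus strand: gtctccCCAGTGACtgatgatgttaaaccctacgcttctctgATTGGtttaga
HLA-DMB, chr6:32941070-32941124, minus strand: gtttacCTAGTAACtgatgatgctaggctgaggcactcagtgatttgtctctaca
HLA-DOA, chr6:33009648-33009700, minus strand: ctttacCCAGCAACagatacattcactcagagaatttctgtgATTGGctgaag
CD74, chr5:150412953-150412999, minus strand: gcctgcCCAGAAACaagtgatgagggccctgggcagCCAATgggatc

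An X core followed by a Y core after 20 to 30 bases was found in 5 of the 9 member windows, each of another gene. The share over all 34943 promoter windows of the same length was 0.796%. Since the letters were chosen after the member windows were read, nothing is read from these shares. Alone the X core stood in 39.3% and the Y core in 34.6% of all windows, and in 7 of the 9 member windows each. The spacing was 28 bases in HLA-DQA1, HLA-DMA and HLA-DOA, 27 in HLA-DRB1 and 22 in CD74. Of the 5 genes with both cores, HLA-DRB1 and HLA-DMA had high ligand values and HLA-DOA had values near 0. HLA-DQA1 and CD74 reached at most 0.56 and 0.76 with estradiol. HLA-DPA1 and HLA-DMB, shown with the X core alone, read 4.14 (211990_at) and 1.83 with estradiol. HLA-DPB1, shown with the Y core alone, read 2.09 (201137_s_at). A relation between the cores and the values was not tested. A match is a description of these letters in the reference genome and not of the cell line's own alleles. By their outer gene bounds HLA-DPA1 and HLA-DPB1 lie head to head and overlap by 4759 bases of chromosome 6. The HLA-DPA1 bounds end at 33080748, and the stretch shown for it belongs to another start, inside these bounds.

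Among the chains that form the surface molecules, the probe sets of HLA-DRA, HLA-DRB1 and HLA-DPA1 stood above the baseline on all 3 arrays and higher on both ligand arrays than on the vehicle array. One probe set of HLA-DPB1 did so as well, and the other did not. HLA-DRA encodes the alpha chain of HLA-DR. Its first probe set (208894_at) read 3.93 with tamoxifen, 4.42 with estradiol and 2.03 with vehicle, and its second (210982_s_at) read 3.61, 4.20 and 1.71 in the same order. Both ligand arrays were high and the vehicle array low, with tamoxifen in between. The differences from vehicle were 1.90 and 1.90 on the log2 scale with tamoxifen, and 2.38 and 2.50 with estradiol, or 3.73-fold and 3.74-fold with tamoxifen and 5.22-fold and 5.64-fold with estradiol. On the estradiol array these probe sets ranked 3 and 7 of the 41097 with a single symbol. On the vehicle array they already ranked 6 and 16, so the gene was among those furthest above the baseline there too. In RNA from whole cultures, fewer cells with a transcript and less of it per cell cannot be told apart.

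HLA-DPA1, the alpha chain of HLA-DP, had 3 probe sets that gave the same picture. Probe set 211990_at read 3.96 with tamoxifen, 4.14 with estradiol and 1.91 with vehicle. Probe set 213537_at read 3.27, 4.02 and 1.75 in that order, and 211991_s_at read 3.19, 3.89 and 1.68. Estradiol differed from vehicle by 2.21 to 2.27 over these probe sets, a range of 0.05. Tamoxifen differed from vehicle by 1.51 to 2.05, a range of 0.54, so the probe sets of this gene disagreed for tamoxifen and not for estradiol. Its partner HLA-DPB1, the beta chain, had one probe set (201137_s_at) with 1.77 with tamoxifen, 2.09 with estradiol and 0.41 with vehicle. The differences from vehicle were 1.36 and 1.68. The other HLA-DPB1 probe set (244485_at) lay near the baseline on every array, at -0.15 with tamoxifen, 0.02 with estradiol and 0.18 with vehicle.

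HLA-DRB1, a beta chain of HLA-DR, had 1 probe set (208306_x_at), of a type that can bind related transcripts, so its value cannot be given to HLA-DRB1 alone. It read 1.98 with tamoxifen, 2.48 with estradiol and 0.99 with vehicle. The differences from vehicle were 0.99 with tamoxifen and 1.48 with estradiol. HLA-DQA1, the alpha chain of HLA-DQ, stood apart from the DR and DP chains. Its brightest probe set (203290_at) read -0.07 with tamoxifen, 0.56 with estradiol and -0.01 with vehicle, so estradiol alone lay above the other arrays, by 0.57 over vehicle. The other HLA-DQA1 probe sets lay between 0.03 and 0.21 on the ligand arrays, and at -0.05 and 0.01 on the vehicle array.

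The peptide exchange genes split between HLA-DM and HLA-DO. HLA-DMA, the alpha chain of HLA-DM (217478_s_at), read 1.41 with tamoxifen, 1.79 with estradiol and 0.71 with vehicle. HLA-DMB, its beta chain (203932_at), read 1.24 with tamoxifen, 1.83 with estradiol and 0.57 with vehicle. Both chains had the order of HLA-DRA, with estradiol highest and vehicle lowest. The differences from vehicle were 0.71 and 0.67 with tamoxifen and 1.09 and 1.26 with estradiol. HLA-DOA, the alpha chain of the HLA-DM inhibitor, had 5 probe sets, all between -0.07 and 0.28 on the ligand arrays. None of them differed from vehicle by 1.5-fold: the differences were -0.12 to 0.27 with tamoxifen and 0.04 to 0.25 with estradiol.

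CD74 and CIITA did not share the size of the HLA-DR and HLA-DP differences. Probe set 209619_at of CD74, the invariant chain, read 0.54 with tamoxifen, 0.76 with estradiol and 0.16 with vehicle, a difference from vehicle of 0.38 with tamoxifen and 0.60 with estradiol. The other CD74 probe sets lay below 0 on every array. Probe set 1567628_at read -0.55 with tamoxifen, -0.01 with estradiol and -0.01 with vehicle, and 1567627_at read -0.47, -0.45 and -0.10 in the same order. CIITA, the transactivator of the family, had the opposite order of ligands. Its brightest probe set (205101_at) read 0.77 with tamoxifen, 0.19 with estradiol and -0.08 with vehicle, so the tamoxifen array was the high one, by 0.85 over vehicle. Probe set 211884_s_at read 0.32 with tamoxifen, 0.11 with estradiol and -0.14 with vehicle, and 210925_at read 0.06, -0.49 and -0.06.

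**Figure D1:**
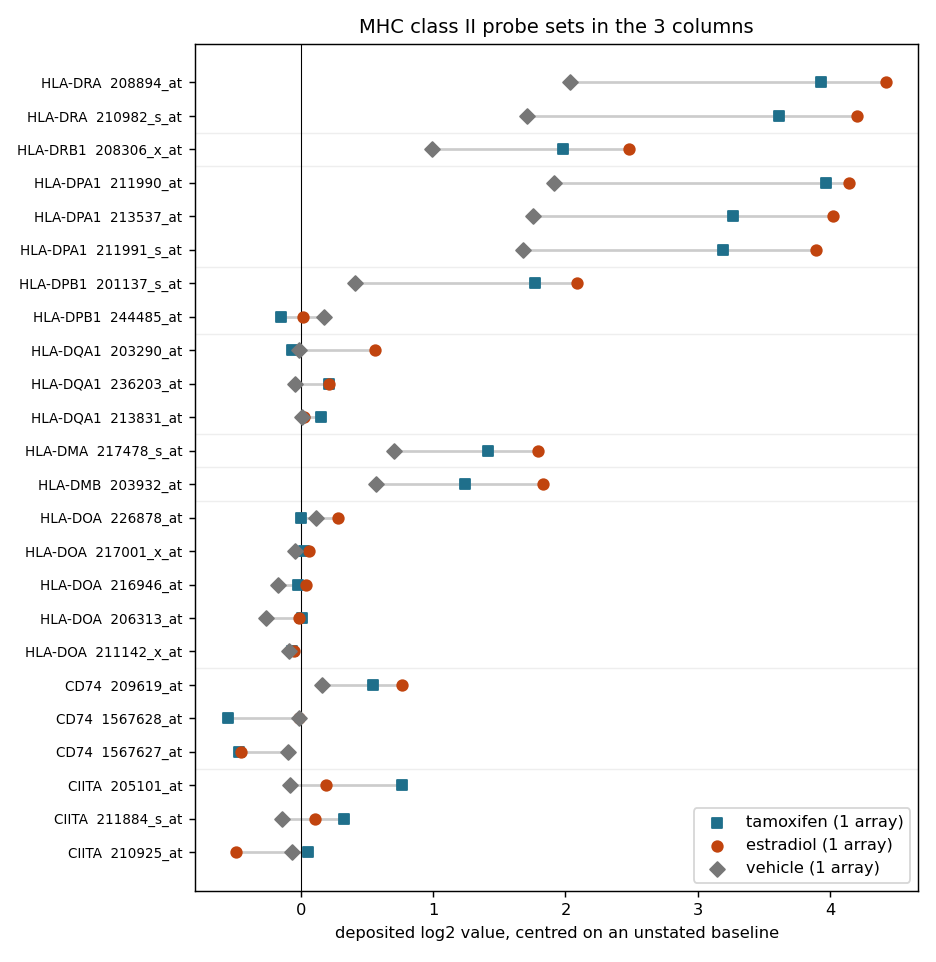
Deposited log2 values (horizontal axis, centred on an unstated baseline) of the 24 class II probe sets (rows), with a square for tamoxifen, a circle for estradiol and a diamond for vehicle, 1 array each; grey lines join the lowest and highest value. The probe sets of HLA-DRA and HLA-DPA1 lie between 3.19 and 4.42 on the ligand arrays and between 1.68 and 2.03 on the vehicle array, while those of HLA-DOA stay near 0.

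Over the family, 10 of 24 probe sets were at least 1.5-fold higher with tamoxifen than with vehicle, beside 6.18% of all 41097 probe sets with a single symbol. With estradiol 10 of 24 were higher, beside 5.93%. No member was 1.5-fold lower in either comparison, beside 4.85% and 4.26% of all probe sets. The median difference over the 24 was 0.33 with tamoxifen and 0.27 with estradiol, against 0.02 over all probe sets in both. Both comparisons use the same vehicle array, and the members were chosen with these differences known, so nothing is read from the shares. Counted as genes, 9 of the 10 members passed the floor on brightness, HLA-DPB1 being the exception. Of these, 6 were higher with tamoxifen (7.14% of 12054 genes) and 5 with estradiol (6.05%). HLA-DRA, HLA-DRB1, HLA-DPA1, HLA-DMA and HLA-DMB were higher with both, and CIITA was the sixth with tamoxifen. With all probe sets of a gene averaged CIITA stood at 0.48, below 1.5-fold, which left 5. The median over the 9 genes was 0.71 with tamoxifen and 1.09 with estradiol, against 0.02 over all genes in both.

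Doubling the vehicle value made the differences smaller for members with a vehicle value well above 0, and moved members with a vehicle value below 0 upward. For the HLA-DRA probe sets they were then -0.14 and 0.20 with tamoxifen, and 0.35 and 0.79 with estradiol. Those of HLA-DPA1 were -0.24 to 0.14 with tamoxifen and 0.31 to 0.54 with estradiol. HLA-DRB1 stood at -0.01 with tamoxifen and 0.49 with estradiol, so it no longer passed 1.5-fold with either. HLA-DMA stood at -0.00026 with tamoxifen and 0.38 with estradiol, and HLA-DMB at 0.10 and 0.69. HLA-DPB1 (201137_s_at) was smaller too but still past 1.5-fold, at 0.95 with tamoxifen and 1.26 with estradiol. CIITA (205101_at), with a vehicle value below 0, stood at 0.93 with tamoxifen and 0.35 with estradiol. HLA-DQA1 (203290_at) with estradiol moved to 0.59 and so passed 1.5-fold in this setting, against 0.57 as deposited.

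In that setting 3 of 24 probe sets were at least 1.5-fold higher with tamoxifen (8% of all probe sets) and 4 with estradiol (6.11%). The 3 with tamoxifen were the one of HLA-DPB1 and 2 of CIITA. The 4 with estradiol belonged to HLA-DRA, HLA-DPB1, HLA-DQA1 and HLA-DMB. By gene, 1 of 9 was higher with tamoxifen (7.18% of 12054) and 2 with estradiol (4.41%). All 5 members with a vehicle value of at least 1, which are the probe sets of HLA-DRA and HLA-DPA1, were higher with both ligands as deposited. With the vehicle doubled, 0 of the 5 passed with tamoxifen and 1 with estradiol. The same held widely: 108 probe sets of 92 genes had such a vehicle value. Of these 108, 91 were 1.5-fold higher with tamoxifen and 105 with estradiol as deposited, and 15 and 19 with the vehicle doubled, where their median differences were -0.01 and 0.25. Across the 24 members the vehicle values correlated with the tamoxifen values at r = 0.97 and with the estradiol values at r = 0.98. Over all probe sets with a single symbol r was 0.56 and 0.65. These are descriptions across probe sets, which share a baseline within a row and, for several members, a gene.

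**Figure D2:**
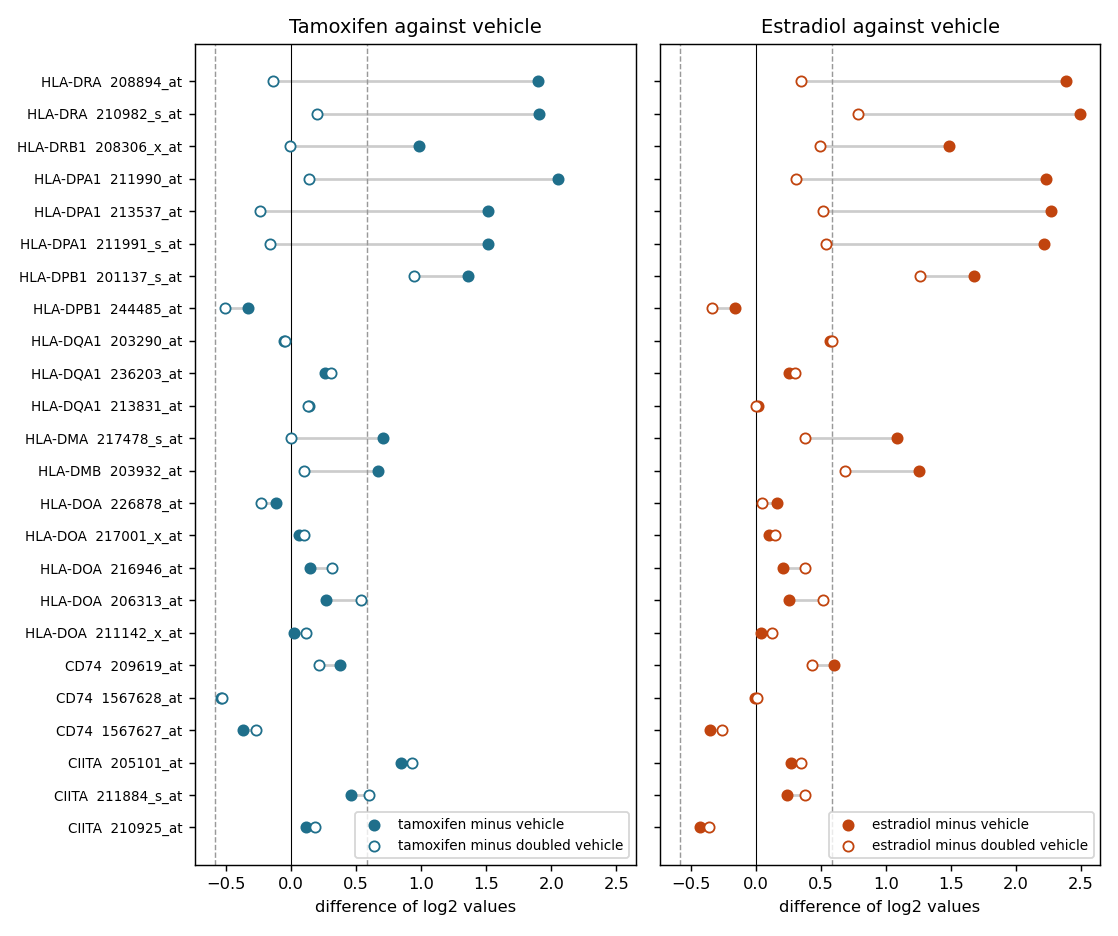
Difference of log2 values (horizontal axis) of each class II probe set (rows) between tamoxifen and vehicle (left) and estradiol and vehicle (right), with filled points for the vehicle value as deposited, open points for the vehicle value doubled, and dashed lines at 1.5-fold. The HLA-DRA probe sets move to -0.14 and 0.20 in the left panel and to 0.35 and 0.79 in the right panel, and HLA-DPB1 201137_s_at stays at 0.95 and 1.26.

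**Figure D3:**
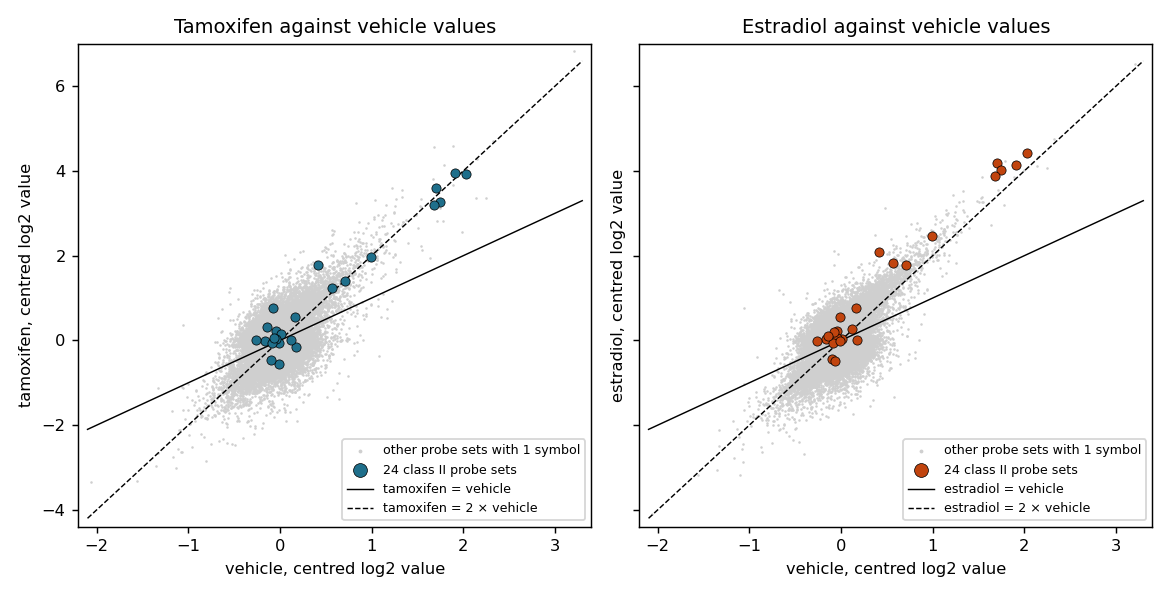
Centred log2 values on the tamoxifen array (left) and the estradiol array (right) against those on the vehicle array, for the 24 class II probe sets (coloured) and all other probe sets with a single symbol (grey). The solid line marks equal values and the dashed line a ligand value of 2 times the vehicle value; the members with high vehicle values lie near the dashed line, as do other probe sets with high vehicle values.

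Technical controls differed between the same arrays. The bacterial poly-A control transcripts, which are spiked into the RNA, read higher than on the vehicle array by a median of 0.84 with tamoxifen and 0.99 with estradiol over 27 probe sets, and by 0.36 and 0.44 with the vehicle doubled. The spikes added at hybridisation differed by 0.10 and 0.18 over 18 probe sets, and by more, 0.23 and 0.32, with the vehicle doubled. Their part in the class II differences was not tested. GAPDH, a glycolysis gene often used as a loading reference, stood at -0.17 relative to vehicle with tamoxifen and at -0.11 with estradiol. ACTB, which encodes beta-actin, stood at -0.34 and -0.05. The 3′ minus 5′ difference of the ACTB control probe sets stood at 0.89 relative to vehicle with tamoxifen and at -0.05 with estradiol. With the vehicle doubled it stood at 1.12 and 0.18. That of the GAPDH control probe sets stood at 0.16 and 0.05 as deposited. The part of these differences in the class II values was not tested.

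The comparison of tamoxifen with estradiol does not use the vehicle array. The members were chosen with these differences known as well, so nothing is read from the shares. In this comparison most class II genes read lower with tamoxifen, by less than 2-fold, and CIITA read higher. Of the 24 probe sets 18 were lower with tamoxifen, and 5 of them by at least 1.5-fold, beside 3.84% of all probe sets with a single symbol. None was 1.5-fold higher, beside 3.6%. The median over the members was -0.20 and that over all probe sets -0.0036. The 5 were 2 probe sets of HLA-DPA1 (-0.76 and -0.70), and 1 each of HLA-DQA1 (-0.63), HLA-DRA (-0.59) and HLA-DMB (-0.59). The 9 members with a vehicle value of at least 0.3 were all lower with tamoxifen, by 0.18 to 0.76 in size. Of the 15 others 9 were lower. Among all 1913 probe sets with such a vehicle value, 66.4% were lower with tamoxifen.

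By gene, HLA-DRA averaged 3.77 with tamoxifen and 4.31 with estradiol, a difference of -0.54 over 2 probe sets. HLA-DRB1 differed by -0.50 and HLA-DMA by -0.38. HLA-DQA1 (-0.63) and HLA-DMB (-0.59) were the 2 of 9 member genes at least 1.5-fold lower, beside 2.23% of 12054 genes, and both lay close to that size. None was 1.5-fold higher, beside 1.63%. The median over the 9 was -0.38 and over all genes -0.02. Probe sets of a gene disagreed most for HLA-DQA1, by a range of 0.75 (-0.63 to 0.12) over 3 probe sets, only 1 of them above the floor. Its call was lost with all probe sets averaged (-0.17). HLA-DPA1 had a range of 0.58 (-0.76 to -0.18). Its gene value of -0.18 rests on the single probe set in the brightest band (211990_at), and was -0.55 with all averaged. Among the 5364 genes with several probe sets above the floor, probe sets of a gene differed by a median of 0.28 and by up to 0.70 in 9 of every 10 of them. Most class II differences between both ligands lie inside that span. The span compares probe sets on the same arrays and is not a spread between replicates.

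CIITA differed in the other direction from the class II chains. Its 3 probe sets were all higher with tamoxifen than with estradiol, by 0.58 (205101_at), 0.54 (210925_at) and 0.22 (211884_s_at). None of these passed 1.5-fold, and only the first lay above the floor. By gene it ranked 211 of 12054 from the top, while HLA-DQA1 ranked 212 from the bottom. The ACTB control probe sets, which compare the 3′ with the 5′ end of the transcript, differed by 0.94 between the tamoxifen and estradiol arrays, and those of GAPDH by 0.11. Whether this reflects RNA quality, and its part in the class II values, was not tested.

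Other class II genes outside the 10 members had 17 probe sets with a single symbol. Of these, 3 were higher than vehicle with tamoxifen (6.18% of all such probe sets on the array) and 4 with estradiol (5.93%). HLA-DRB4, another DR beta chain (209728_at), read 2.87 with tamoxifen, 2.95 with estradiol and 1.02 with vehicle, and kept 0.83 and 0.90 over the doubled vehicle. Between tamoxifen and estradiol it differed by -0.08. The other HLA-DRB4 probe sets did not share these differences: 215666_at stood at -0.58 with tamoxifen and -0.16 with estradiol relative to vehicle (-1.20 and -0.78 with it doubled), and 215669_at at 0.52 and 0.13. HLA-DRB6, a DR beta pseudogene (217362_x_at), read 1.63 with tamoxifen, 2.10 with estradiol and 0.76 with vehicle, while its other probe set (217323_at) stood at -0.06 with tamoxifen and -0.23 with estradiol relative to vehicle. HLA-DQB1, the DQ beta chain, had 7 probe sets that disagreed. Probe set 212999_x_at was lower with tamoxifen than with estradiol (-0.72), while 209823_x_at read 1.05 with tamoxifen, 1.13 with estradiol and 0.14 with vehicle. DR beta genes share long stretches of sequence, so probe sets of these genes can read each other's transcripts.

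Most factors that bind the class II promoter differed from vehicle by less than 1.5-fold. Of 7 genes above the floor 1 was 1.5-fold higher with each ligand, beside 7.14% of all genes with tamoxifen and 6.05% with estradiol. It was RFXAP, a subunit of RFX, at 0.68 with tamoxifen and 0.70 with estradiol. The medians of this list were 0.23 and 0.23, against 0.02 over all genes in both. With the vehicle doubled 2 passed with tamoxifen (7.18% of all genes), RFXAP at 0.63 and NFYA at 0.63. With estradiol 1 did (4.41%), RFXAP at 0.64. Over the vehicle as deposited, RFX5, the DNA-binding subunit of RFX, differed by 0.23 with tamoxifen and 0.37 with estradiol. RFXANK, the remaining subunit, differed by -0.12 and -0.23, and CREB1 by 0.04 and 0.14. The NF-Y subunits disagreed: NFYA differed by 0.53 and 0.45, NFYB by 0.28 and 0.23, and NFYC by -0.21 and 0.06. None passed 1.5-fold between tamoxifen and estradiol. In the list of the interferon gamma route to CIITA, 3 of 9 genes were higher with tamoxifen (7.14% of all genes) and 2 with estradiol (6.05%). With estradiol 1 was lower (2.75%). The medians were 0.26 and 0.20, against the 0.02 over all genes. The genes in these counts, some of them named because of their values, were the interferon-induced factor IRF1 (0.81 with tamoxifen and 0.79 with estradiol), IRF2 (0.65 and 0.71), the JAK inhibitor SOCS1 (0.70 and 0.16) and the transcription factor USF1 (-0.56 and -0.61).

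IRF1 was further from vehicle with the vehicle doubled, at 1.25 with tamoxifen and 1.24 with estradiol. Between tamoxifen and estradiol it differed by 0.02. IFNGR2, a chain of the interferon gamma receptor, was lower with tamoxifen than with estradiol (-0.52), and SOCS1 was higher (0.54). Neither passed 1.5-fold, and SOCS3 (0.09) and the phosphatase gene PTPN2 (0.19) were nearer to 0. The 10 chromatin factors held none past 1.5-fold in any comparison, with medians of 0.06 with tamoxifen and 0.0031 with estradiol over vehicle. The largest differences between tamoxifen and estradiol were those of the histone acetyltransferase gene EP300 (0.39), the histone methyltransferase gene EZH2 (0.38), the deacetylase gene HDAC2 (0.19) and PRDM1, a repressor of CIITA in plasma cells (0.19).

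Of the genes that process antigen for class II, 2 of 10 were higher with each ligand, beside 7.14% of all genes with tamoxifen and 6.05% with estradiol. The medians were 0.15 with tamoxifen and 0.07 with estradiol. The 2 were the lysosomal proteases CTSS, which trims CD74 (0.67 with tamoxifen and 0.59 with estradiol), and CTSL (0.60 and 0.81). With the vehicle doubled CTSS stood at 0.36 and 0.28 and CTSL at 0.46 and 0.67. Between tamoxifen and estradiol CTSD differed by -0.33, CYBB by 0.31, SPPL2A, an intramembrane protease that cleaves the CD74 stub, by 0.30 and CTSL by -0.21. MIF, a CD74 ligand, was near vehicle at -0.44 with tamoxifen and -0.27 with estradiol, and so were its partners CD44 (0.34 and 0.35) and CXCR4 (-0.51 and -0.42).

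Class I genes present peptides to CD8+ T cells. Of 17 class I presentation genes above the floor, 4 were higher with tamoxifen (7.14% of all genes) and 4 with estradiol (6.05%). Their medians were 0.28 and 0.34. HLA-B differed by 0.70 with tamoxifen and 0.78 with estradiol, HLA-F by 0.74 and 0.66, and B2M, the light chain, by 0.71 and 0.60. With the vehicle doubled HLA-B stood at 0.24 with tamoxifen and 0.31 with estradiol. The class II chains above the floor had medians of 1.44 with tamoxifen and 1.86 with estradiol as deposited, above those of class I. With the vehicle doubled the order turned for tamoxifen, at 0.01 for the class II chains and 0.22 for class I, but not for estradiol, at 0.53 and 0.31. These class II medians are over 4 genes, among them HLA-DRA and HLA-DPA1, whose differences from vehicle led to the choice of the family. Nothing is therefore read from the order. Between tamoxifen and estradiol none of the 17 passed 1.5-fold, and the median was -0.07. The furthest were the peptidase genes ERAP1 (0.50) and ERAP2 (0.22) and the immunoproteasome genes PSMB10 (-0.36) and PSMB9 (-0.32). In the list of costimulation and adhesion, ICAM1, an adhesion molecule of T cell contact, was the furthest between tamoxifen and estradiol, at -1.21. Relative to vehicle ICAM1 stood at 0.12 with tamoxifen and 1.34 with estradiol. CD58, the ligand of CD2, differed from vehicle by 1.42 with tamoxifen and 1.18 with estradiol, and by 0.44 and 0.19 with the vehicle doubled. CD40 differed by -0.09 and ICOSLG by 0.10 between tamoxifen and estradiol.

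**Figure D4:**
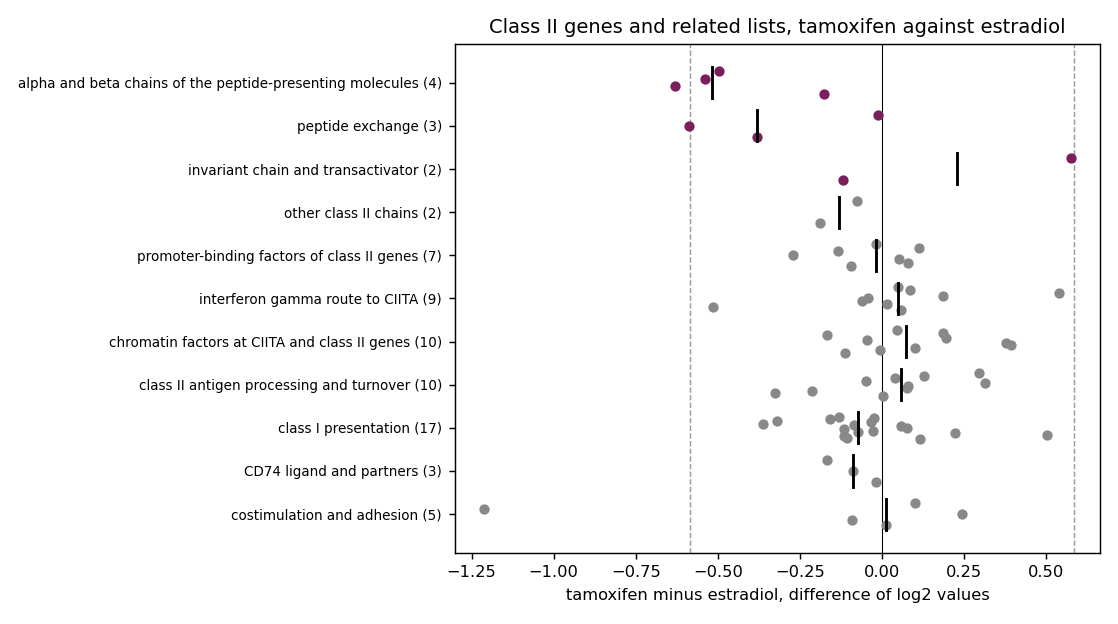
Tamoxifen minus estradiol difference of log2 values (horizontal axis) for each gene above the brightness floor, by list (rows, with the number of genes), with the class II members in purple, black bars for the list medians and dashed lines at 1.5-fold. The alpha and beta chains have a median of -0.52 over 4 genes, the class I list a median of -0.07 over 17, and CIITA lies at 0.58.

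Markers of professional antigen-presenting cells lay mostly near the baseline. Of 17 such markers analysed for B cells, monocytes and macrophages, and dendritic cells, 4 lay above the floor: CD79A, CD79B, CSF1R and BATF3. None of these 4 was 1.5-fold higher than vehicle with either ligand, and BATF3 was lower with tamoxifen (-0.67). Below the floor, LYZ stood at 1.01 with tamoxifen and 0.57 with estradiol over vehicle, and is named for that value. Over all 17, values ran from -0.99 to 1.06 with tamoxifen, from -0.73 to 0.62 with estradiol and from -0.32 to 0.35 with vehicle. Since the values are centred, summed levels cannot be given, and the part of such cells in the class II values was not tested. PTPRC, the common leukocyte antigen, differed from vehicle by 0.22 with tamoxifen and -0.40 with estradiol, and LCP1 by -0.98 and -0.45. LAPTM5 differed by 0.32 and 0.33, and the T cell marker CD4 by 0.11 and -0.24.

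The genes whose pair of differences from vehicle was most like that of HLA-DRA, by Euclidean distance over 12054 genes and 2 differences, were HLA-DPA1 (distance 0.26), the collagen gene COL4A5 (0.28), the cholesterol exporter gene ABCA1 (0.35), the chemokine gene CXCL8 (0.42) and CEMIP (0.46). With the vehicle doubled these 5 no longer lay together. ABCA1 stood at -0.02 with tamoxifen and 0.03 with estradiol, close to HLA-DRA (0.03 and 0.57) and HLA-DPA1 (0.14 and 0.31) with tamoxifen, whereas CXCL8 stood at 1.82 and 2.52. The nearest to CD74, whose 2 probe sets in use averaged 0.0049 with tamoxifen and 0.12 with estradiol over vehicle, were UACA, MECR, GCDH, GOLGA8N and TSACC, at distances of 0.0054 to 0.010. These 2 CD74 probe sets went opposite ways. Probe set 209619_at differed from vehicle by 0.38 with tamoxifen and 0.60 with estradiol, and 1567627_at by -0.37 and -0.35. The CD74 average, its nearest genes and its rank therefore rest on values that cancel. By that average CD74 ranked 6219 of 12054 from the top with tamoxifen and 4450 with estradiol.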

How the data were processed

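RNA of 3 MDA-MB-231 samples was run on Affymetrix arrays after biotin labelling, per the labels' protocols. The deposited log2 values come from RMA (version not stated), per the submitters' processing notes. The authors' baseline, centring and any pooling are not given in the sources used here. Probe sets were named through the supplied platform annotation (41097 with 1 symbol, 1801 with several, 11777 not listed, 0 symbols updated). Members and lists were chosen with earlier results of these data known.

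Differences of log2 values were computed in Python 3.11.15 with pandas 2.3.3, and no statistical test between groups was run. The floor was read from the binary steps of the deposited numbers, which are finer for lower levels. For the vehicle column finer steps were allowed, as for a mean of several arrays. That is an assumption which the labels do not state. Probe sets in the band of 4 to 8 or brighter were kept. The band is that of the lower of level and baseline, so a probe set far above a dim baseline, such as HLA-DPB1's, can fall below it. A gene's value is the average over those of its probe sets that lie in its brightest band. The band reading was tested on simulated data with the vehicle column made as such a mean. Named were all members, up to 4 genes per list with the largest tamoxifen minus estradiol difference in size, the 5 genes nearest to HLA-DRA and to CD74, GAPDH and ACTB. The number of arrays limits the precision.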

Additional observations from a re-analysis of the deposited data

Results flagged for a closer look

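Probe sets annotated to several class II genes were used in no comparison above, and 4 of 6 read at least 1.5-fold higher with each ligand than with vehicle. Probe set 215193_x_at differed from vehicle by 1.53 with tamoxifen and 1.68 with estradiol, and 209312_x_at by 1.56 and 1.53. Probe set 204670_x_at differed by 1.22 with tamoxifen and 1.27 with estradiol, and 221491_x_at by 1.002 and 1.22. Between tamoxifen and estradiol these 4 differed by -0.15, 0.03, -0.05 and -0.21, and none of the 6 passed 1.5-fold over the doubled vehicle with either ligand.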

How the results depend on the processing

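With the vehicle doubled, 1 member gene was at least 1.5-fold higher with tamoxifen (7.18% of all genes) and 2 with estradiol (4.41%). The medians over the members were 0.031 and 0.38. HLA-DRB1 (-0.0056) and HLA-DMA (-0.00026) then turned sign with tamoxifen. With the brightest band alone 2 members were left, HLA-DRB1 and HLA-DPA1. Both were higher with each ligand, beside 6.84% of all genes in that band with tamoxifen and 5.37% with estradiol. Of these members 0 were lower with tamoxifen than with estradiol (1.51%). Without probe set types that can cross-react, 4 of 7 member genes were higher with tamoxifen (7.58%) and 3 with estradiol (5.92%). Their medians were 0.67 and 0.57. At 2-fold, 2 of 9 member genes were higher than vehicle with tamoxifen (1.38% of all genes) and 5 with estradiol (1.25%). At that size 0 were lower with tamoxifen than with estradiol (0.241%). At 1.5-fold, the 2 genes lower with tamoxifen than with estradiol became 1 with all probe sets averaged (without HLA-DQA1), beside 1.55% of all genes. With columns centred within brightness bands 1 was left too (without HLA-DMB, at -0.58), beside 2.21%. No paired analysis was possible because the labels give 1 sample per group. The unstated baseline limits every comparison with vehicle, and no depth or background signal was used here.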

Other observations

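HLA-DOA probe set 206313_at read 0.0099 with tamoxifen and -0.0099 with estradiol. Such exactly opposite values, within 1e-07, occurred in 211 of the 54675 probe sets for tamoxifen and estradiol, in 2 for estradiol and vehicle and in 0 for tamoxifen and vehicle.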
